A study of Arabidopsis thaliana with 24 samples.

Results

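A set of 7 Arabidopsis thaliana genes was followed through RNA-seq of plants mutant for an LSM gene and of their wild types. They are the pathogenesis-related genes PR1 (AT2G14610), PR2 (AT3G57260) and PR5 (AT1G75040), the 3 genes of the PCC1 cluster on chromosome 3 (PCC1, AT3G22231; AT3G22235; AT3G22240), and the lectin gene AT5G03350. These 7 of the 33602 genes in the count tables were picked by name with the lsm4 values already known, so the lsm4 values of these 7 genes and of their introns are given as a description with no test. All 7 passed the filter on low counts in both comparisons. The study sequenced polyA RNA of whole plants, described as a pool of tissues, in 4 groups of 3 count columns each; each column holds the reads of 2 of the 24 sequenced samples. The lsm4 group carried the lsm4-1 allele in the Col background and was set against WT Col; both grew on Murashige and Skoog agarose and were harvested on day 15. The lsm5 group carried the sad1 allele in the C24 background and was set against WT C24; both grew on soil and were taken on day 30, before bolting. All 4 groups were kept at 22 °C in continuous light, and the labels name no pathogen or hormone treatment. What kind of mutation each allele is was not given in the labels, and neither was whether replicates were separate growths, so the spread behind each p-value is that between these libraries and may be technical.

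Salicylic acid is the plant hormone that leads defence against pathogens feeding on living tissue. It is made from isochorismate, and its receptors of the NPR family work with TGA transcription factors, which bind TGACG, to switch on defence genes. WRKY factors, which bind the W-box, act above and below them. PR1 is the standard marker of this response, PR2 is a beta-1,3-glucanase that cuts a fungal wall polymer, and PR5 is a thaumatin-like protein. PCC1, named for its control by pathogens and the circadian clock, encodes a small cysteine-rich protein that sits in membranes. LSM proteins form rings on RNA: a nuclear ring binds U6, an RNA of the splicing machinery, and a cytoplasmic ring takes part in mRNA decay, and LSM4 and LSM5 are in both.

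The count columns held between 9402839 (WT Col 1) and 52218346 (WT Col 2) gene counts. Some libraries stood apart: lsm4 1 and 3 differed by a chi-square of 39.3 per degree of freedom over genes, against 148 and 115 for either of them with lsm4 2, while the WT Col pairs ran from 48.5 to 84.8. In the other comparison lsm5 1 and 2 gave 19.0, against 133 and 136 with lsm5 3, and WT C24 1 and 3 gave 16.0, against 90.1 and 95.5 with WT C24 2. Results that rest on those libraries are given with and without them. LSM4 (AT5G27720) itself had 412, 238 and 405 CPM (gene counts scaled to library size, with TMM for composition) in lsm4 against 42.9, 52.0 and 76.3 CPM in WT Col, and LSM5 (AT5G48870) had 10.1, 11.1 and 16.7 CPM in lsm5 against 19.9, 12.2 and 15.2 CPM in WT C24; without the kind of mutation, neither level checks the labels. Among tissue markers, the summed level of 4 leaf genes was 25578 to 45150 CPM in lsm4 against 60474 to 78530 CPM in WT Col, with LHCB1.3 alone called lower. Of 5 root genes, CASP1, IRT1 and RHD6 were lower in lsm4, while their sum of 520 to 737 CPM overlapped the 481 to 705 CPM of WT Col. Of 3 senescence genes, SAG13 and SAG29 were higher, with a sum of 119 to 158 CPM in lsm4 against 6.38 to 17.9 CPM in WT Col. Flower genes summed to 2.30 to 3.31 CPM in lsm4 against 0.498 to 1.71 CPM in WT Col, with SEP3 called higher and AP3 at 0; in lsm5 they summed to 6.07 to 6.59 CPM against 0.569 to 3.96 CPM in WT C24, with AP1 and AP3 called higher. Leaf and senescence sums in lsm5 were 40355 to 71283 and 446 to 477 CPM against 53059 to 86996 and 343 to 409 CPM in WT C24, and the root sum was 60.7 to 93.8 CPM against 113 to 132 CPM, with RHD6 at 0. The part of these markers in the results below was not tested.

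The PCC1 cluster is a run of 3 related genes on the minus strand of chromosome 3, and how alike they are decides which counts can be told apart. In the files' TAIR10 coordinates PCC1 spans chr3:7845823-7846605, AT3G22235 spans chr3:7854419-7855814 and AT3G22240 spans chr3:7863616-7864819. RefSeq names the products of AT3G22235 and AT3G22240 as a cysteine-rich transmembrane module stress tolerance protein and a PCC1-like cysteine-rich transmembrane protein. The second coding exon shows the relation; the sequences are of the Col reference, from RefSeq's TAIR10.1 assembly, minus strand, with capitals at bases that differ from AT3G22235 or are missing there.
PCC1 coding exon 2, chr3:7846268-7846421: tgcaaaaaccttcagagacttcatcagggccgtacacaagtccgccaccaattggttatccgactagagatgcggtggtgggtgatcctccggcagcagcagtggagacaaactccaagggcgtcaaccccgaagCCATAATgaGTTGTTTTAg
AT3G22240 coding exon 2, chr3:7864428-7864569: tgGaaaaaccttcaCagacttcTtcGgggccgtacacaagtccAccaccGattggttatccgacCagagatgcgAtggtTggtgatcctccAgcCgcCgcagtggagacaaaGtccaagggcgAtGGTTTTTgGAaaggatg
AT3G22235 coding exon 2, chr3:7855334-7855472: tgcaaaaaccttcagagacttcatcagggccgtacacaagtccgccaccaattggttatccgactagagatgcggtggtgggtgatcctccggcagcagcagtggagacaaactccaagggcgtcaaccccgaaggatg
PCC1 matched AT3G22235 at 138 of 139 aligned bases, and the exons were the same until shortly before their ends. There the alignment put the 1 mismatch and the 15 bases of PCC1 that AT3G22235 lacks. AT3G22240 matched AT3G22235 at 119 of 139. The order turned round further along the gene. The last intron of AT3G22235 matched that of AT3G22240 at 584 of 591 aligned bases, and all 218 bases of the last exon of AT3G22240 were found in AT3G22235, while the last exon of PCC1 shared no run of 50 bases with any other place in the genome. The intron before coding exon 2 was again nearly the same in PCC1 and AT3G22235, with capitals here at the single base that differs.
PCC1 intron 1, chr3:7846422-7846532: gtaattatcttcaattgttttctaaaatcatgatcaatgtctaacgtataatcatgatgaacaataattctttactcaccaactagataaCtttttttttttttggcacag
AT3G22235 intron 2, chr3:7855473-7855583: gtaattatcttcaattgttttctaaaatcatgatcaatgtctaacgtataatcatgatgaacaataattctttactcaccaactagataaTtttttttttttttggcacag

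Such stretches limit how far a read can be assigned. Of all 50-base windows, 100% in exon 1 and 81.9% in exon 2 of PCC1 occurred elsewhere in the genome without a mismatch, against 0% in its exon 3. In AT3G22235 the share was 55.4%, 95.6% and 100% in exons 2, 3 and 4, and in AT3G22240 it was 0% in exons 1 and 2 and 100% in exon 3. PR1, PR2, PR5 and AT5G03350 had no such window. The near-identical introns gave nearly equal counts in every library: PCC1 intron 1 and AT3G22235 intron 2 had 1 and 1, 0 and 0, and 0 and 0 counts in lsm4, against 17 and 17, 22 and 21, and 558 and 535 in WT Col. They had 812 and 804, 781 and 762, and 358 and 351 counts in lsm5, against 326 and 311, 778 and 745, and 457 and 432 in WT C24. How the authors' counting treated reads that match several places was not given in the sources used here. The levels of the 3 cluster genes are therefore uncertain relative to each other. PCC1 intron 2 and AT3G22240 intron 1 hold no shared window, so their reads can be assigned to their own gene. The gene counts they are divided by include shared exons, so their signal relative to the gene is less certain.

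**Figure D1:**
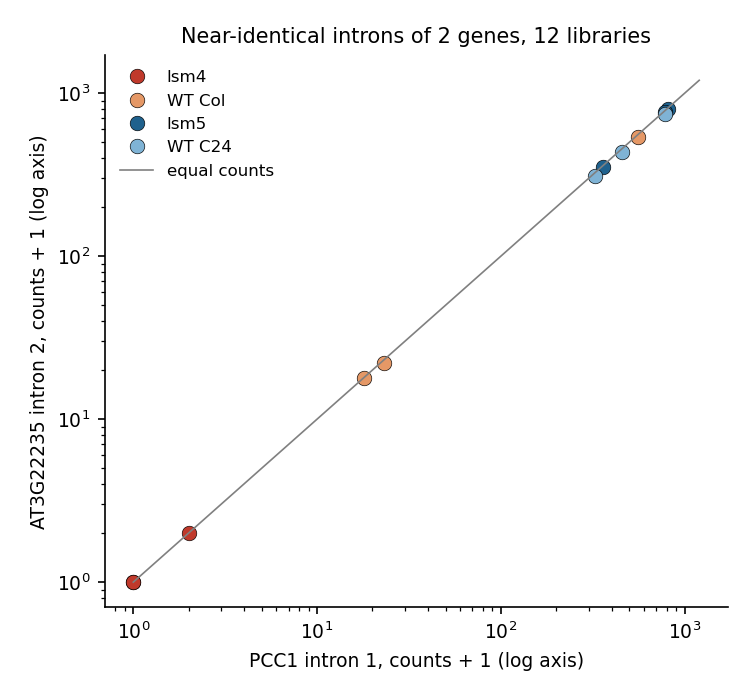
Counts of PCC1 intron 1 (x axis) and AT3G22235 intron 2 (y axis) in the 12 libraries, both as counts + 1 on log axes, with the line of equal counts. All 12 points lie on or next to the line, from 1 and 1 counts in lsm4 1 to 812 and 804 counts in lsm5 1, although the genes lie apart on the chromosome.

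In lsm4 plants, 4 of the 7 genes were lower in every library than in any WT Col library (PR2, PCC1, AT3G22235 and AT5G03350), PR5 was higher in every library, and PR1 and AT3G22240 overlapped. Over all 20793 genes tested, 19.1% were lower and 20.7% were higher in every lsm4 library; since the genes were chosen on this contrast, nothing is read from the comparison. In whole plants, fewer cells of a type and less RNA per cell cannot be told apart in any of these levels.

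PR1, at chr2:6241704-6242463, had 6.89, 9.49 and 6.37 CPM in lsm4 against 15.9, 6.82 and 639 CPM in WT Col. The lsm4 libraries were alike, a single WT Col library was high by far, and WT Col 2 lay within the lsm4 range. The means were 7.58 ± 1.67 CPM in lsm4 and 221 ± 363 CPM in WT Col (SD, n = 3 each), and the fitted log2 change of -4.86 (SE 1.48) became -0.55 without WT Col 3. The WT Col mean was thus set by 1 library.

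PR2, at chr3:21188517-21189859, had 7.76, 3.48 and 7.49 CPM in lsm4 against 16.1, 11.5 and 63.8 CPM in WT Col. Every lsm4 library was below every WT Col library, and WT Col 3 was again the highest. The means were 6.24 ± 2.40 CPM in lsm4 and 30.5 ± 28.9 CPM in WT Col (SD, n = 3 each), a log2 change of -2.29 (SE 0.62), or -1.12 without WT Col 3. PR5, at chr1:28177703-28178940, moved the other way, with 48.4, 41.1 and 53.3 CPM in lsm4 against 11.5, 9.25 and 24.1 CPM in WT Col. Its groups did not overlap, although WT Col 3 was the highest of its group here too. The means were 47.6 ± 6.15 CPM in lsm4 and 14.9 ± 8.01 CPM in WT Col, a log2 change of 1.67 (SE 0.34) or 3.18-fold higher, and 1.42 to 2.22 when any 1 of the 6 libraries was left out. Of the 3 markers, then, PR2 lay below and PR5 above WT Col in the same lsm4 libraries, and PR1 overlapped it.

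**Figure D2:**
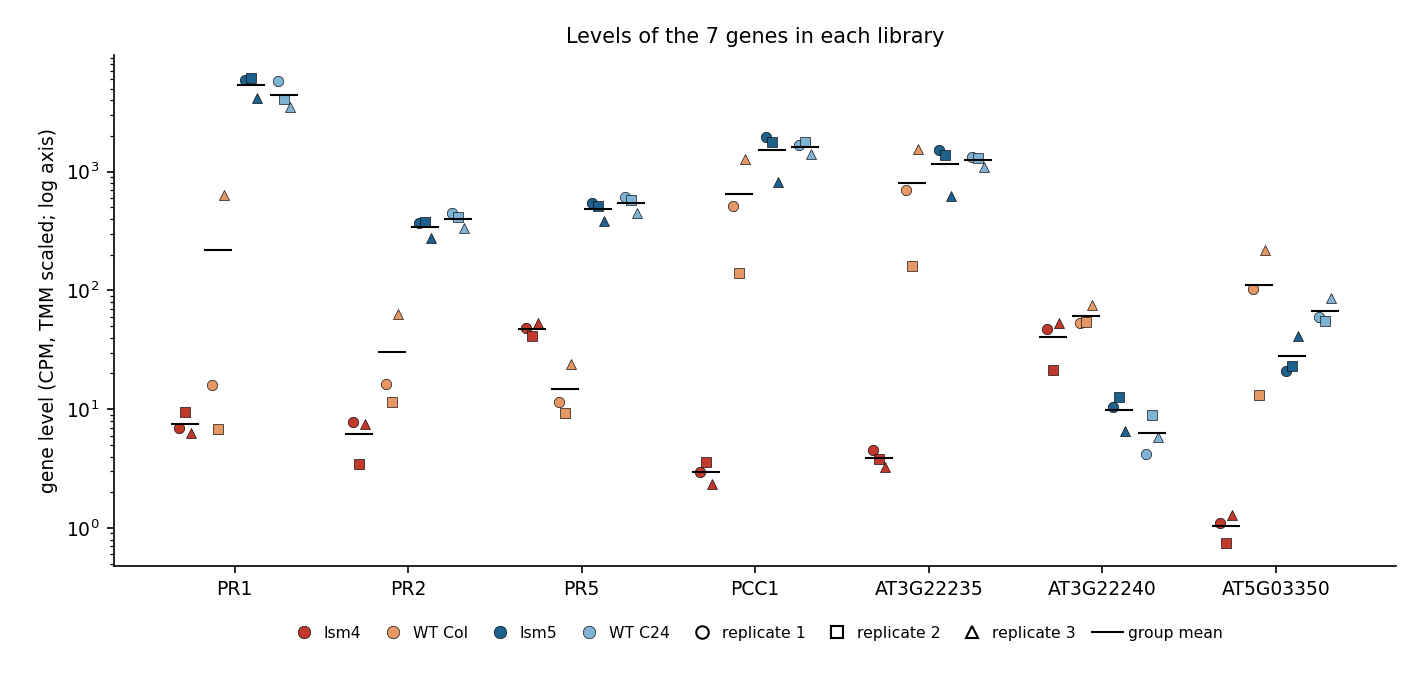
Level of each of the 7 genes in each library, in TMM-scaled CPM on a log axis, with groups in the order lsm4, WT Col, lsm5, WT C24; symbols mark the replicate and bars the group mean (n = 3). In lsm4, PCC1, AT3G22235 and AT5G03350 lie below 5 CPM and below all WT Col libraries, PR5 lies above them, and WT Col 3 (triangle) is the highest WT Col library for all 7 genes; the lsm5 and WT C24 points overlap for all genes but AT5G03350.

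PCC1 had 2.95, 3.61 and 2.36 CPM in lsm4 against 517, 141 and 1288 CPM in WT Col, from 102, 134 and 82 counts in lsm4 against 5186, 6551 and 30146 counts in WT Col. The lsm4 values were close to each other and all were far below the lowest WT Col value. The means were 2.98 ± 0.625 CPM in lsm4 and 649 ± 585 CPM in WT Col (SD, n = 3 each), a log2 change of -7.76 (SE 0.82), between -8.22 and -6.77 (without WT Col 3) when any 1 library was left out. AT3G22235 had 4.52, 3.83 and 3.28 CPM in lsm4 against 702, 161 and 1545 CPM in WT Col, with the same order of libraries within WT Col and no overlap. Its log2 change was -7.69 (SE 0.82), or -6.78 without WT Col 3. The third gene of the cluster differed from both: AT3G22240 had 47.1, 21.3 and 53.7 CPM in lsm4 against 52.9, 53.8 and 75.9 CPM in WT Col. Its groups overlapped, lsm4 2 was the low library, and the log2 change was -0.58 (SE 0.32). In lsm4 it held 10.4, 5.58 and 16.3 counts for each count of AT3G22235, against 0.0754, 0.335 and 0.0491 in WT Col; this ratio is uncertain, since the last exons of both genes are shared throughout. PCC1 held 0.654, 0.944 and 0.719 counts for each count of AT3G22235 in lsm4 against 0.737, 0.873 and 0.834 in WT Col, ranges that overlap.

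AT5G03350, which RefSeq annotates as a legume lectin family protein and which lies at chr5:815674-816658, had 1.10, 0.755 and 1.296 CPM in lsm4 against 104, 13.1 and 219 CPM in WT Col. The highest lsm4 library was below the lowest WT Col library, and WT Col 2 was low and WT Col 3 high, as for PCC1. The means were 1.05 ± 0.274 CPM in lsm4 and 112 ± 103 CPM in WT Col (SD, n = 3 each), a log2 change of -6.73 (SE 0.95), or -5.77 without WT Col 3 and -7.24 without WT Col 2. Without WT Col 1 and lsm4 2 together, left out after the data were seen, the log2 changes in lsm4 were -5.60 for PR1, -2.29 for PR2, 1.63 for PR5, -8.07 for PCC1, -7.77 for AT3G22235, -0.36 for AT3G22240 and -6.58 for AT5G03350, each with the sign it had with all libraries.

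Genes beside these loci were looked at to see whether a wider stretch of chromosome moved. Among the 34 genes that flank the 7 on either side, 20 were tested in lsm4 and 1 was called at an adjusted p under 0.05 (edgeR quasi-likelihood test, Benjamini-Hochberg), against 21.4% of all genes tested; 2 had an unadjusted p below that value and DESeq2 called 1. The called gene was AT5G03340, which encodes a CDC48-type ATPase and lies 2.446 kb from AT5G03350, with 55.7 ± 1.63 CPM in lsm4 and 36.3 ± 2.99 CPM in WT Col (log2 0.62, adjusted p = 0.0258 by edgeR's quasi-likelihood test). It was higher beside a lectin gene that was lower. In the PCC1 region the tested neighbours lay between -0.57 (AT3G22230) and 0.90 (AT3G22260) on the log2 scale, and the 4 annotated genes between the cluster genes had 0 counts in all 12 libraries. In lsm5 none of the 20 tested flanking genes was called by edgeR, 2 had an unadjusted p under 0.05 and DESeq2 called 1.

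**Figure D3:**
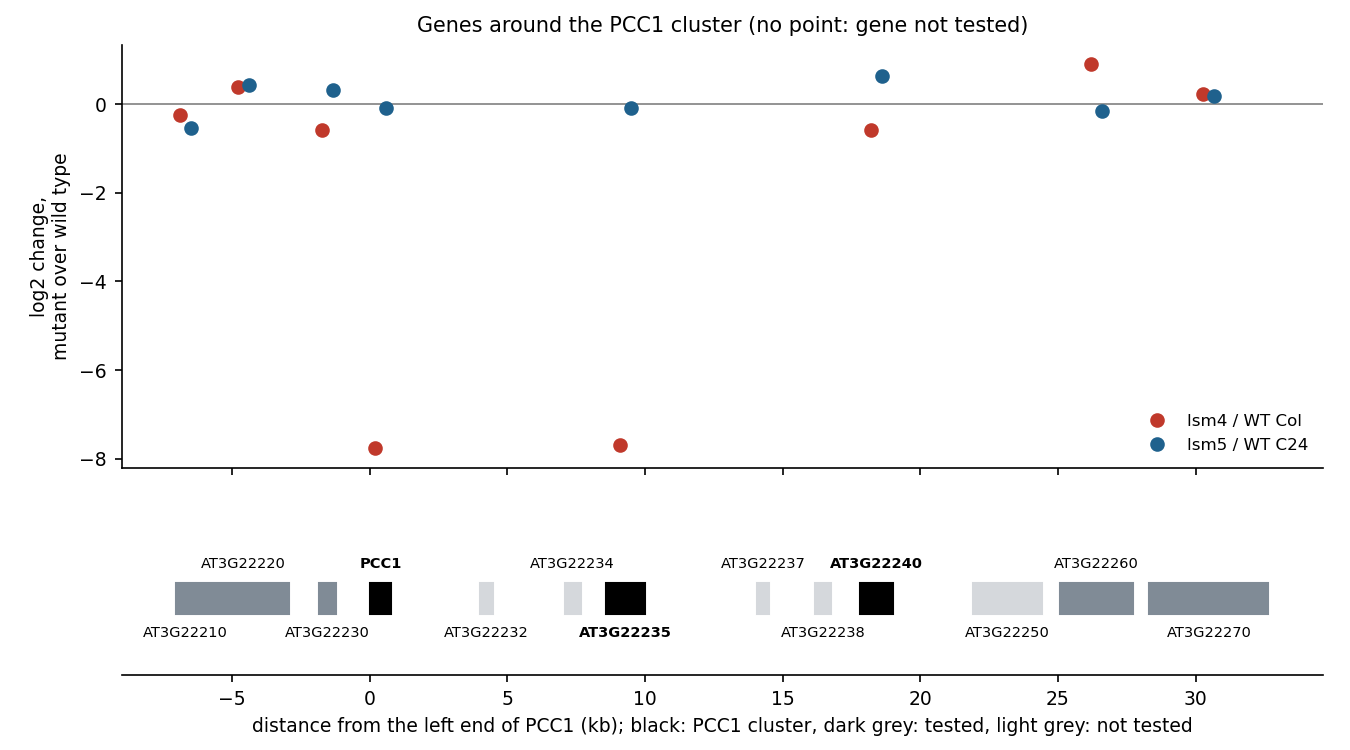
Genes around the PCC1 cluster. The upper panel gives the log2 change of mutant over wild type for each tested gene (red, lsm4 against WT Col; blue, lsm5 against WT C24), and the lower panel the genes by distance in kb from the left end of PCC1. In lsm4, PCC1 and AT3G22235 lie at -7.76 and -7.69, while AT3G22240 and the tested neighbours lie between -0.58 and 0.90.

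The wild-type Col libraries spread widely for most of these genes, and the lsm4 libraries did not. The range within WT Col, as the difference in log2(CPM + 0.5) between the highest and the lowest library, was 6.45 for PR1, 4.01 for AT5G03350, 3.26 for AT3G22235, 3.19 for PCC1, 2.43 for PR2 and 1.34 for PR5, against a median of 0.56 over all 20793 genes. At least 99.5% of genes had a smaller range than each of the first 5, and 94.2% had a smaller range than PR5. AT3G22240 was ordinary, at 0.52. In lsm4 the range was 0.54 for PR1, 0.52 for PCC1, 0.41 for AT3G22235, 0.52 for AT5G03350 and 0.37 for PR5, against a median of 0.51, while PR2 reached 1.05 and AT3G22240 1.31. The added 0.5 narrows the range of genes at low levels. For AT5G03350 the highest lsm4 library was 1.72-fold the lowest in CPM. In the C24 pair the widest were PCC1 and AT3G22235 in lsm5, at 1.28 and 1.29, where lsm5 3 was the low library for both; in WT C24 they ranged over 0.33 and 0.26.

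Levels per length put the genes in different orders in lsm4, in WT Col and in the C24 pair. In lsm4, AT3G22240 led with 76.1 ± 31.9 CPM per kb of exon, followed by PR5 with 48.6 ± 6.28, PR1 with 9.98 ± 2.20, AT3G22235 with 5.64 ± 0.900, PCC1 with 5.46 ± 1.15, PR2 with 4.998 ± 1.92 and AT5G03350 with 1.07 ± 0.279 (SD, n = 3). In WT Col the order began with PCC1 and AT3G22235, at 1190 ± 1074 and 1168 ± 1015 CPM per kb, and ended with PR2 and PR5, at 24.4 ± 23.2 and 15.2 ± 8.18. Every neighbour in the WT Col order overlapped the next; in lsm4 the first pair overlapped, as did the 3 genes from AT3G22235 to PR2 each with the next. In lsm5 the order was PR1 (7091 ± 1386), PCC1 (2788 ± 1140), AT3G22235 (1695 ± 696), PR5 (489 ± 87.6), PR2 (274 ± 45.2), AT5G03350 (28.7 ± 11.2) and AT3G22240 (18.5 ± 5.80), all as mean ± SD of CPM per kb; PCC1 overlapped AT3G22235 there, and AT5G03350 overlapped AT3G22240. The order in WT C24 was the same, from PR1 at 5856 ± 1608 CPM per kb to AT3G22240 at 11.9 ± 4.57, with no neighbours overlapping. By its mean AT3G22240 was first in lsm4, where it overlapped PR5, and last in both C24 groups, where it overlapped AT5G03350 in lsm5. Accession, age and medium differ together between the pairs, each table was scaled separately and C24 reads were counted on a Col-type annotation, so levels across the pairs are set side by side without a test.

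In lsm5 plants 6 of the 7 genes overlapped WT C24 and 1, AT5G03350, was lower in every library; over all 19819 genes tested, 10.4% were lower and 13% higher in every lsm5 library. None of the 7 was called at an adjusted p under 0.05 by edgeR's quasi-likelihood test, 1 (AT5G03350) had an unadjusted p below that value and DESeq2 called 1, against 2.45% of all genes called by edgeR. AT5G03350 had 20.8, 23.0 and 41.0 CPM in lsm5 against 60.1, 55.2 and 85.5 CPM in WT C24. The third library of each group was its highest, and the groups did not overlap. The means were 28.3 ± 11.1 CPM in lsm5 and 66.9 ± 16.3 CPM in WT C24 (SD, n = 3 each), with a log2 change of -1.24 (95% interval -2.06 to -0.43, adjusted p = 0.0691 by edgeR's quasi-likelihood test with Benjamini-Hochberg adjustment). DESeq2 gave -1.26 with an adjusted p of 0.00229, edgeR with no filter on low counts gave an adjusted p of 0.0421, and leaving out any 1 library moved edgeR's adjusted p between 0.0032 (without lsm5 3, at -1.62) and 0.25. Without WT C24 2 and lsm5 3 together, a choice made after the data were seen, it was -1.73 with edgeR's adjusted p at 1.4e-05. AT5G03350 was also called by edgeR with a replicate block by number or by tag, though whether the libraries pair could not be settled. Whether its change differed in size between lsm5 and lsm4 was not tested.

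The marker genes were high in both C24 groups. PR1 had 5908, 6082 and 4177 CPM in lsm5 against 5824, 4045 and 3483 CPM in WT C24. The ranges overlapped, and the log2 change of 0.28 had a 95% interval of -0.53 to 1.08 (edgeR adjusted p = 0.672). PR2 had 371, 379 and 278 CPM in lsm5 against 451, 413 and 334 CPM in WT C24 (log2 -0.22, 95% interval -0.79 to 0.35, edgeR adjusted p = 0.625). PR5 had 545, 512 and 382 CPM in lsm5 against 607, 578 and 449 CPM in WT C24 (log2 -0.18, 95% interval -0.78 to 0.41, edgeR adjusted p = 0.710). For all 3, replicate 3 was the lowest library of its group in both genotypes, and the intervals allow changes of either sign.

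PCC1 had 1962, 1788 and 809 CPM in lsm5 against 1675, 1777 and 1414 CPM in WT C24. The low value of lsm5 3 set the mean: the log2 change was -0.09 (95% interval -1.003 to 0.81, edgeR adjusted p = 0.912) with it and 0.20 without it. AT3G22235 had 1508, 1367 and 619 CPM in lsm5 against 1318, 1305 and 1103 CPM in WT C24, with a log2 change of -0.09 (95% interval -0.99 to 0.80, edgeR adjusted p = 0.912) that also became 0.20 without lsm5 3. The interval for either gene still holds changes of close to 1 log2 unit. AT3G22240 was low in both groups, with 10.5, 12.6 and 6.53 CPM in lsm5 against 4.21, 9.01 and 5.80 CPM in WT C24, ranges that overlap. Its log2 change was 0.63 (95% interval -0.32 to 1.59, edgeR adjusted p = 0.383); without WT C24 2 and lsm5 3 it was 1.196 with an adjusted p of 0.00111 by the same edgeR test, so the call depends on those libraries.

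**Figure D4:**
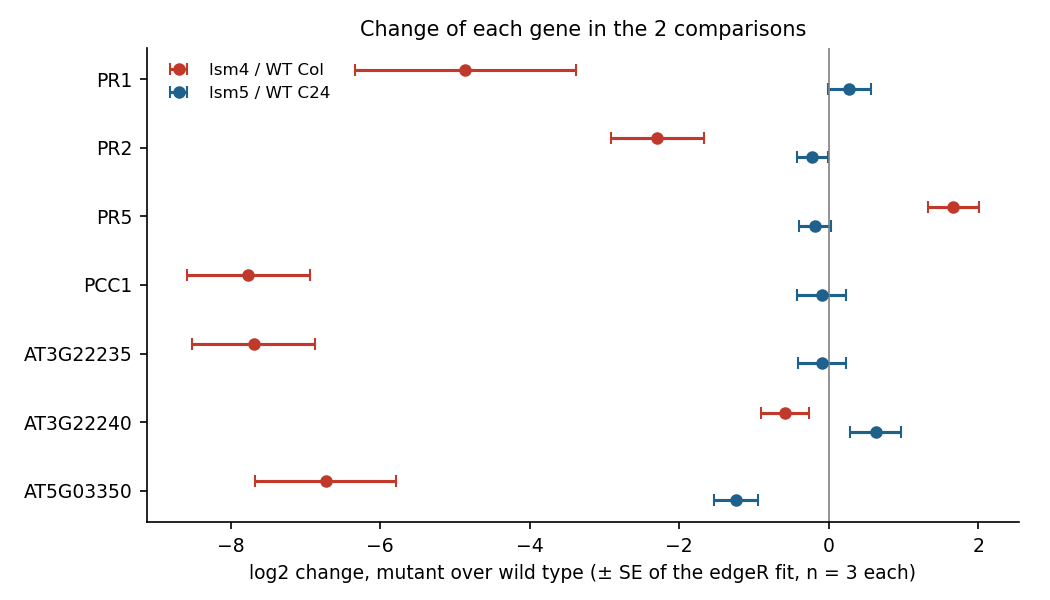
Log2 change of mutant over wild type with its standard error from the edgeR fit (n = 3 per group), for lsm4 against WT Col (red) and lsm5 against WT C24 (blue). The red points lie between -7.76 (PCC1) and 1.67 (PR5) and describe the contrast on which the genes were chosen; the blue points lie between -1.24 (AT5G03350) and 0.63 (AT3G22240).

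Intron reads were counted for 9 introns of these genes, of 120717 in the tables; PR1 and AT5G03350 have none there, and none of the 7973 bins of annotated alternative splicing lies in the 7 genes. Introns are numbered here in the direction of transcription, and intron signal is given as counts per 100 counts of the gene, so that a change of the whole transcript does not move it. The introns on which the results turn are short and begin with GT and end with AG, shown in capitals (RefSeq TAIR10.1, minus strand).
PCC1 intron 2, chr3:7846141-7846267: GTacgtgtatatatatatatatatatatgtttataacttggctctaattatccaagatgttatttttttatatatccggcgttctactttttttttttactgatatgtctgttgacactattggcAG
AT3G22240 intron 1, chr3:7864570-7864644: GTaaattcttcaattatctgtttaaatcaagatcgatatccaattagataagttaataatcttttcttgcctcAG

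PCC1 intron 2, which follows coding exon 2, had a higher relative signal in lsm5. It had 1.02, 1.23 and 1.21 counts per 100 gene counts in lsm5 against 0.235, 0.383 and 0.356 in WT C24, from 608, 710 and 366 intron counts in lsm5 against 69, 224 and 131 in WT C24. Every lsm5 library was above every WT C24 library. The means were 1.15 ± 0.116 in lsm5 and 0.324 ± 0.0788 in WT C24 (SD, n = 3 each), a log2 change of relative signal of 1.83 (SE 0.25) or 3.55-fold higher, with an adjusted p of 0.0172 over 7151 introns (edgeR quasi-likelihood test, Benjamini-Hochberg). It was the 1 called of 5 introns tested here, against 0.531% of all introns called. The 5 are not independent, since they include PCC1 intron 1 and AT3G22235 intron 2, which are nearly identical and had nearly equal counts. Of all introns, 16.5% were higher and 1.79% lower in every lsm5 library, and the median intron had a log2 change of 0.24. The call was lost, at edgeR adjusted p-values of 0.167, 0.150 and 0.0602, without WT C24 1, without WT C24 3 and without lsm5 2, with log2 changes of 1.64 to 1.90, and with a library-size offset in place of the gene count (1.48, edgeR adjusted p = 0.101); it held without WT C24 2 and lsm5 3 together (1.92, edgeR adjusted p = 0.000389). The other intron of PCC1, the one nearly identical to AT3G22235 intron 2, had 1.301 ± 0.0980 counts per 100 in lsm5 and 1.23 ± 0.111 in WT C24 (log2 0.09, edgeR adjusted p = 0.923, n = 3 each). PR2 intron 1 and AT3G22235 intron 1 had log2 changes of 0.23 and -0.63 with edgeR adjusted p-values of 0.906 and 0.602. AT3G22235 intron 1, at chr3:7855678-7855797, lies mostly within annotated exon 2 of that gene, at chr3:7855584-7855791. Its reads therefore need not come from unspliced RNA.

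In lsm4 the few PCC1 transcripts left little to measure. PCC1 intron 2 had 0, 0 and 1 counts in lsm4 against 73, 139 and 610 in WT Col, or 0, 0 and 1.22 per 100 gene counts against 1.41, 2.12 and 2.02. The 3 lsm4 libraries hold 1 read of this intron over 318 gene counts, with an exact Poisson 95% interval of 0.0253 to 5.57 reads that covers counting error only. At the pooled WT Col rate, 318 gene counts would carry 6.24 reads, which is given without a test. Over all 11439 introns tested in this pair, 36.6% were higher and 1.86% lower in every lsm4 library, with a median log2 change of 0.65.

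AT3G22240 intron 1 was the intron of the cluster that was higher in every library of both mutants than in their wild types. This direction was common: 36.6% of introns tested were higher in every lsm4 library and 16.5% in every lsm5 library. Only 1.86% and 1.79% were lower. It had 1.78, 2.65 and 1.72 counts per 100 gene counts in lsm4 against 0.188, 0.598 and 0.225 in WT Col, from 29, 21 and 32 counts in lsm4 against 1, 15 and 4 in WT Col. The groups did not overlap, and the relative signal was 5.07-fold higher (log2 2.34, SE 0.51). The gene count includes exon 3, which is shared throughout with AT3G22235, a gene far higher in WT Col than in lsm4. What part reads of AT3G22235 have in this ratio was not tested. In lsm5 AT3G22240 intron 1 had 7, 6 and 5 counts against 0, 1 and 0 in WT C24, or 2.20, 1.47 and 2.06 per 100 gene counts against 0, 0.337 and 0. Every lsm5 library was above every WT C24 library, and the intron was too low to enter the fit. The longer second intron of the same gene had 2.52, 2.90 and 2.04 counts per 100 in lsm4 against 7.72, 2.67 and 5.91 in WT Col, and 3.77, 2.20 and 1.65 in lsm5 against 0, 1.68 and 1.32 in WT C24. Both pairs of ranges overlap, and 68.3% of the windows of this intron occur elsewhere. AT3G22235 intron 3, its near-copy, which shares 68.5% of its windows with other places, had 11, 3 and 2 counts in lsm4 against 91, 91 and 371 in WT Col. Relative to the gene it was higher in all lsm4 libraries, at 7.05, 2.11 and 1.75 per 100 gene counts against 1.29, 1.21 and 1.03. In the C24 pair AT3G22235 intron 3 had 3, 2 and 2 counts in lsm5 and 0, 5 and 2 in WT C24. Reads of these long introns cannot be assigned to 1 gene, so neither can be read as the behaviour of its own gene.

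**Figure D5:**
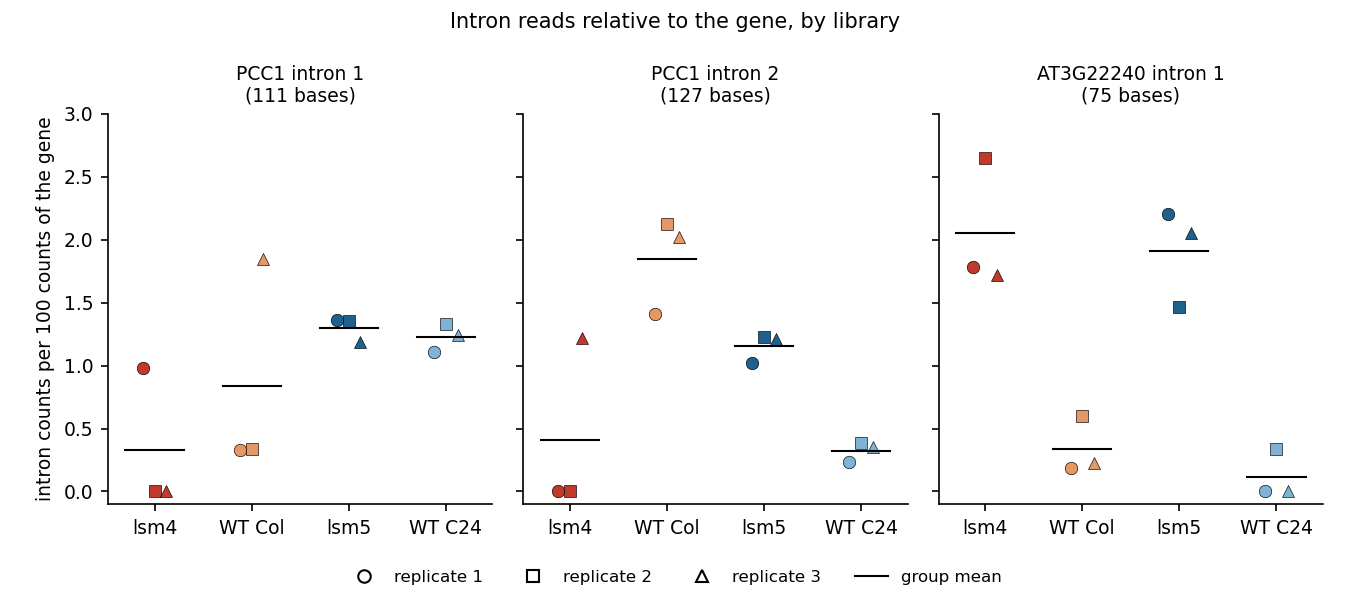
Intron counts per 100 counts of the gene in each library (y axis) for PCC1 intron 1, PCC1 intron 2 and AT3G22240 intron 1, by group in the order lsm4, WT Col, lsm5, WT C24; symbols mark the replicate and bars the group mean. PCC1 intron 2 lies at 1.02 to 1.23 in lsm5, above 0.235 to 0.383 in WT C24, and AT3G22240 intron 1 lies higher in both mutants than in their wild types; the lsm4 points for PCC1 rest on 0 or 1 counts.

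The motif TGACG was found upstream of 3 of the 7 genes. The 250 bases before the RefSeq start of PCC1, AT3G22235 and AT5G03350 are shown because each holds it; capitals mark it and the W-box core (TTGAC) on either strand, and no clock-related evening element was found there (TAIR10.1, minus strand).
PCC1, chr3:7846834-7847083: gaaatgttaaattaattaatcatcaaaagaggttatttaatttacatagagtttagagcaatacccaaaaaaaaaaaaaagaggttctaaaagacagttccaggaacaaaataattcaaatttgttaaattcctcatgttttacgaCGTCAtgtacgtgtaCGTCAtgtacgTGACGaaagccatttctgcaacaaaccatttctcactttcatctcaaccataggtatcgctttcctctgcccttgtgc
AT3G22235, chr3:7855815-7856064: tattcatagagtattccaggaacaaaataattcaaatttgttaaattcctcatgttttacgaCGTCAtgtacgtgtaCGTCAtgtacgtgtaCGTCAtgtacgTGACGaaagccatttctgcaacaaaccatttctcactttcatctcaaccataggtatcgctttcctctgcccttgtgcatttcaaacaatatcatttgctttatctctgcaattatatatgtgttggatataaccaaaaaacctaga
AT5G03350, chr5:816671-816920: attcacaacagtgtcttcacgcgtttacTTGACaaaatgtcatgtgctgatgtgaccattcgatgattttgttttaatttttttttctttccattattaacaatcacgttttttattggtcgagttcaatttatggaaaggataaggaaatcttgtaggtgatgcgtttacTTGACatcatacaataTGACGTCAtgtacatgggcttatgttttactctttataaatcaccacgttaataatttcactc
TGACG, the core bound by TGA factors, lay 78, 89 and 104 bases before the start in PCC1 and 147, 158, 173 and 188 bases before it in AT3G22235. These are not independent, since the 105 bases before the PCC1 start are found without a mismatch 174 to 70 bases before the AT3G22235 start. In AT5G03350 the motif lay 63 bases before the start, with the overlapping match on the other strand at 60 (TGACGTCA). In the window from 250 bases before to 50 after the start, TGACG was in 3 of the 7 genes and in 23.07% of 27443 RefSeq promoters. The W-box core TTGAC was in 4 of 7 (PR1, PR2, PR5 and AT5G03350) and in 50.48% of promoters. The full W-box, TTGACC or TTGACT, which contains that core, was in 2 of 7 (PR2 and PR5) and in 32.37%. The evening element, AAAATATCT, was in 2.817% of promoters and in none of the 7. A match is a run of letters in this window and says nothing of binding.

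Lists of other salicylic acid genes were read beside the 7, with a list of 6 PR genes not led by that hormone. The lists were drawn up with earlier results of these samples known, so their counts and calls are not independent evidence of a direction. Of 52 listed genes, 44 were tested in lsm4, where 3 were called higher and 11 lower; over all genes 10.7% were called higher and 10.7% lower. In the list of hormone synthesis and its activators all 12 were tested and 3 fell: ACD6, an ankyrin protein that sets the level of defence, ICS2 and ICS1, the isochorismate synthases. ACD6 had 0.608, 0.404 and 0.346 CPM in lsm4 against 152, 39.3 and 247 CPM in WT Col (log2 -8.32, edgeR adjusted p = 0.000234). The WT Col libraries stood in the same order for ACD6 as for PCC1. ICS2 had a log2 change of -1.91 and ICS1 of -1.09 (edgeR adjusted p = 0.00790 and 0.0290). The median of the list was -0.27, against 0.02 over all genes.

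In the list of receptors and transcription factors 15 of 18 were tested, 2 rose and 4 fell, with a median of 0.03. WRKY18 rose, with 34.7, 48.3 and 40.5 CPM in lsm4 against 2.59, 3.07 and 4.102 CPM in WT Col (log2 3.64, edgeR adjusted p = 9.1e-05), and TGA5 rose by a log2 of 0.80 (edgeR adjusted p = 0.0245). WRKY54 fell (log2 -5.51, edgeR adjusted p = 0.000882), as did WRKY70, its close relative, with groups that overlap (log2 -2.80, edgeR adjusted p = 0.0196). NPR4, a receptor that represses defence genes, and NIMIN3 fell too (log2 -1.13 and -1.04, edgeR adjusted p = 0.0220 and 0.0331). Among 6 tested genes of systemic acquired resistance AZI1, a lipid transfer protein, rose by a log2 of 1.97 (edgeR adjusted p = 0.0113; list median -0.52). Among 7 tested genes induced by salicylic acid LURP1, WAK1 and DMR6 fell, the largest being LURP1 with 5.995, 4.04 and 5.91 CPM in lsm4 against 117, 12.8 and 218 CPM in WT Col (log2 -4.45, edgeR adjusted p = 0.00634; list median -1.25). WAK1 is a wall-associated kinase and DMR6 an enzyme that breaks down salicylic acid (log2 -2.48 and -1.09, edgeR adjusted p = 0.0156 and 0.0312). Of 4 tested PR genes that respond to other hormones, PDF1.2A, a defensin of the jasmonate response, fell (log2 -2.04, edgeR adjusted p = 0.0362; list median -1.17). The calls of ICS1, NPR4, NIMIN3, TGA5, WRKY70, WAK1, DMR6 and PDF1.2A were each lost when some single library was left out.

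In lsm5, 51 of the 52 were tested and 3 were called, 2 higher and 1 lower, against 1.51% and 0.938% over all genes. WRKY62, a factor induced downstream of NPR1, fell, with 3.26, 4.30 and 4.86 CPM in lsm5 against 21.3, 21.2 and 21.2 CPM in WT C24 (log2 -2.36, edgeR adjusted p = 0.00373). The defensin genes PDF1.2A and PDF1.2C, both from the list of PR genes not led by salicylic acid, rose. PDF1.2A had 134, 257 and 58.9 CPM in lsm5 against 17.6, 24.4 and 10.9 CPM in WT C24 (log2 3.09, edgeR adjusted p = 0.0253). PDF1.2C had a log2 change of 3.13 (edgeR adjusted p = 0.0171), and both calls were lost without WT C24 1, without WT C24 3 or without lsm5 2, PDF1.2A's also without lsm5 1. The list medians in lsm5, in the order above, were 0.01, -0.15, -0.48, 0.21 and 0.77, against 0.01 over all genes.

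The genes whose profiles over the 12 libraries were most like those of PR1 and PCC1 were found by the root mean square difference of log2(CPM + 0.5), each gene centred on its own mean, among 19110 genes tested in both comparisons. The 7 themselves were left out of this ranking. For PR1, whose own profile had a root mean square of 4.34, the nearest were PCR1 at 1.29, LURP1 at 1.66, PNP-A at 1.80, AT5G25260 at 1.81 and the phospholipase gene PLA IIA at 1.87. Of the 7, PR2 lay nearest to PR1, at 1.85. For PCC1, with 3.69, they were ACD6 at 1.15, LURP1 at 1.31, WRKY54 at 1.33, SIB1 at 1.43 and AT5G55450 at 1.63. Among the 7, PCC1 and AT3G22235 were closest at 0.37, in which shared reads have a part that cannot be told apart, followed by PR2 and PR5 at 1.35; AT3G22240 was the farthest, at 3.09 to 5.51 from the others. These distances describe 12 libraries that share 4 group levels. Centred within each group, the profiles had a root mean square of 1.42 for PR1 and 0.73 for PCC1, and 2 of the 5 genes near PR1 and 4 of the 5 near PCC1 stayed among the nearest 5.

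The authors' deposited table of changed genes lists 6 of the 7 in lsm4, with log2 changes of -7.77 for PCC1, -7.69 for AT3G22235, -6.73 for AT5G03350, -4.86 for PR1, -2.29 for PR2 and 1.67 for PR5. The authors' deposited table for lsm5 lists AT5G03350 alone of the 7, at -1.25 with a false discovery rate of 0.0016. For introns in lsm4 the authors' deposited table gives PCC1 intron 2 at -10.4, PCC1 intron 1 at -9.99, AT3G22235 intron 2 at -9.93 and AT3G22240 intron 2 at -2.40. These lie close to the changes of -10.37, -9.91, -9.86 and -2.38 fitted here with a library-size offset, which carry the gene's own difference, and are not on the scale relative to the gene used above. In lsm5 the authors' deposited table gives AT3G22240 intron 1 at 3.17 with a false discovery rate of 0.142.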

How the data were processed

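PolyA RNA libraries were made with an unstranded TruSeq kit, per the labels' protocols, so reads of a gene and of an overlapping antisense gene cannot be told apart. Reads were aligned with TopHat2 2.0.9 to TAIR10 and analysed with edgeR 3.4.2 in R 3.0.2, per the submitters' processing notes. The authors deposited whole-number counts per gene, intron and alternative splicing bin, and, per the file headers, tables of their own log2 changes with p-values and false discovery rates; 12 other per-sample columns were not used. Gene totals per column are given with the results.

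Counts were tested with edgeR 4.0.16 in R 4.3.3 (filterByExpr with a minimum count of 10, TMM, quasi-likelihood F-test, Benjamini-Hochberg over all features tested, threshold 0.05), each mutant with its own wild type. Intron counts had the log of the gene count as offset, for genes with at least 10 counts in every column. The script was tested on simulated data. Alternatives were DESeq2 1.42.0, RLE size factors, no filter, robust dispersion, replicate blocks, a library-size offset, a gene minimum of 30 and leaving out libraries. Sequences came from RefSeq TAIR10.1, using Python 3.11.15. RefSeq exon widths of the 7 genes, cut to the counted span of each gene, equal the counted ones. Some RefSeq models run beyond that span, as for PR1 with 902 bases against 760 counted. The 7 genes and all lists were chosen with earlier results of these data known. Other genes named are the 5 nearest in profile to PR1 and to PCC1, the called genes among the 3 on each side of each of the 7, and called list genes.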

Additional observations from a re-analysis of the deposited data

Results flagged for a closer look

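PCC1 intron 2 was flagged because its signal relative to the gene moved in opposite directions in the 2 mutants. It averaged 0.407 counts per 100 gene counts in lsm4 against 1.85 in WT Col, lower in 3 of 3 libraries, and 1.15 in lsm5 against 0.324 in WT C24, higher in 3 of 3. The lsm4 mean comes from 1 intron read over 318 gene counts. The difference between the 2 mutants was not tested.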

How the results depend on the processing

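Over all genes, the 4458 calls in lsm4 became 7417 with a replicate block by the labels' tag and 2704 to 4552 when 1 library was left out; calls among the listed pathway genes were 14, then 22 with DESeq2 and 8 to 15 without 1 library. In lsm5 the 486 calls became 1384 with DESeq2, 1342 and 1271 with a replicate block by number and by tag, 23 to 2042 without 1 library and 7901 without WT C24 2 and lsm5 3, a choice added after the data were seen; listed genes called were 3, then 6 and 5 with the blocks, 1 to 5 without 1 library and 22 without that pair. Of the 7 genes, 0 were called in lsm5, 1 (AT5G03350) with DESeq2, with no filter and with either block, 0 to 1 without 1 library and 2 without the pair; the 1 called intron became 0 with a library-size offset and 0 to 1 without 1 library. Signs turned for AT3G22235 intron 3 in lsm4 (-6.47 with a library-size offset, which does not remove the change of the gene) and, in lsm5, for PR5 (0.0061 without the pair), PCC1 (0.12 with the tag block, -0.32 to 0.20 without 1 library, the highest without lsm5 3, and 0.28 without the pair), AT3G22235 (0.13, -0.32 to 0.20 and 0.25), and, with the library-size offset, PCC1 intron 1 (-0.23), AT3G22235 intron 2 (-0.19) and PR2 intron 1 (-0.25; -0.093, without lsm5 3, to 0.54 without 1 library, and -0.19 without the pair); the cause was not tested. PR1 in lsm4 was -1.99 and -3.41 with the replicate block by number and by tag. In their deviations from the group mean, same-numbered libraries correlated at -0.27, -0.13 and 0.40 in the Col pair and -0.26, 0.52 and 0.48 in the C24 pair. By tag the values were 0.12 and 0.40 in the Col pair and -0.26 and 0.52 in the C24 pair. The signs are mixed, so whether the libraries pair could not be settled, and the main fits used no block.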
